A study of Mus musculus with 9 samples.

Results

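The livers of 2 mouse genotypes, both labelled as lacking protease-activated receptor 2 (PAR2), were compared on a high-fat diet. The receptor is described as removed in the whole body in 1 and in hepatocytes only in the other. The comparison used 6 of the 9 libraries of the series: 3 livers labelled PAR2 KO, the whole-body knockout (KO below), and 3 labelled PAR2dHep, the hepatocyte-specific knockout (dHep below). The other 3 libraries, from floxed PAR2fl/fl mice (WT), shared the model fit and are quoted for reference. All mice were C57BL/6, aged 6 to 8 weeks when the diet began, and were fed it for 16 weeks, so no group on a control diet bears on these values. The sources used here give no sex, litter, cage, batch or Cre driver. Transcripts of the Y chromosome were present in all 9 libraries (below); litter, cage and batch cannot be told apart from the genotype. Each library is labelled as a mouse of its own, and every comparison is of n = 3 against n = 3.

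PAR2 is a cell-surface receptor that serine proteases, among them coagulation proteases and trypsin-like enzymes, switch on by cutting its extracellular end. The exposed end then acts as a tethered ligand, and the receptor signals through G proteins and arrestins. In the liver the receptor is known from hepatocytes, stellate cells, endothelial cells and immune cells, so a whole-body knockout removes it from cells that a hepatocyte knockout leaves untouched. The series title names HNF4A, a transcription factor of hepatocytes, beside dyslipidemia, obesity and steatotic liver disease.

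Polyadenylated RNA was sequenced with a stranded protocol, and 18683660 to 30509242 reads per library were assigned to genes. Levels are CPM, the counts of a gene scaled to 1e+06 assigned reads with TMM-scaled library sizes. Differences are log2 fold changes, KO minus dHep, with a standard error (SE) from edgeR, and a gene is said to be called, or to have risen or fallen, at a Benjamini-Hochberg adjusted p under 0.05 over all 13141 genes tested. On the first principal component of these 6 libraries (43.7% of the variance) KO ran from 29.1 to 36.2 and dHep from -66.8 to -7.37. On the second (23.1%) KO ran from -18.9 to -4.97 and dHep from -29.3 to 52.2, so the dHep libraries were the less uniform. Correlations of log2 CPM were 0.949 to 0.974 among dHep libraries and 0.974 to 0.989 among KO libraries. Between dHep and KO libraries they were 0.932 to 0.965, which overlaps the range among dHep. The dHep replicate 2 library held markers of exocrine pancreas at a summed 2418 CPM and of skeletal muscle at 1050 CPM, against 78.7 to 118 and 25.4 to 109 CPM in the other 5 libraries. Among the WT libraries, the pancreas sum was 619 CPM in replicate 1 and 13.7 and 15.1 CPM in replicates 2 and 3. The muscle sum was 15.8 to 41.3 CPM in WT. The KO replicate 1 library held markers of intestinal epithelium at a summed 1269 CPM, against 350 to 712 CPM in the other 5 and 2151 to 4191 CPM in the WT libraries. That list includes the apolipoprotein gene Apoa4, so its sum need not come from intestinal tissue alone. KO replicate 1 also held all 520 reads of Krt20, an intestinal keratin, in these 6 libraries. Results were therefore also computed without each library, and without dHep replicate 2 and KO replicate 1 together. Hepatocyte markers summed to 112700 to 126800 CPM in KO and 112900 to 164200 CPM in dHep, so the tissue label holds in all 6.

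The gene that both genotypes target was low in dHep, but not in the libraries labelled KO. F2rl1, which encodes PAR2, had 2, 8 and 0 reads in the dHep libraries and 71, 103 and 76 reads in the libraries labelled KO, with 17, 27 and 28 in WT. In CPM these were 0.06, 0.321 and 0 in dHep and 3.33, 4.66 and 4.39 in KO, and the groups did not overlap. The fold change was 4.96 (SE 0.64, adjusted p = 0.00288). F2rl1 lies at chr13:95511730-95525240 on the minus strand of mm10 and has 2 exons there. The deposited table counts whole genes, so reads of a part removed by the knockout and reads of a part that remains are not separated. Every direction below is from the 3 libraries labelled KO, whose whole-gene F2rl1 reads lay above those of dHep and WT and do not bear out that label.

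F2r, the thrombin receptor PAR1 and the neighbour of F2rl1 on the chromosome, was also higher in the libraries labelled KO. Its level was 24.6, 23.1 and 25.3 CPM in dHep, 53.2, 57.6 and 59.7 CPM in KO and 40.6 to 47.5 CPM in WT. The fold change was 1.23 (SE 0.10, adjusted p = 0.000293). F2rl2 and F2rl3, which encode PAR3 and PAR4, were too low to test, at 0 to 0.241 CPM in the 6 libraries. Of 24 tested genes for receptors of this family, the G proteins they use and arrestins, F2rl1 and F2r were the 2 higher in KO (8.33%, against 4.23% of all tested genes) and 0 were lower (against 5.39%). Both passed under each of the 17 alternative settings. The count of lower members was 1 without dHep replicate 1 or KO replicate 1 and 5 without dHep replicate 3.

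Over all tested genes, 1264 (9.62%) differed between the libraries labelled KO and dHep, 556 higher (4.23%) and 708 lower (5.39%) in KO. The counts of every gene list below stand against these 2 shares. The median fold change of all tested genes was -0.0162 on the log2 scale. All 3 KO libraries lay above all 3 dHep libraries for 13.9% of tested genes and below them for 12.7%; of the called genes, 555 of 556 and 700 of 708 did not overlap. Changes over 4-fold made up 151 of the calls (1.15% of tested genes), 59 higher and 92 lower. A core of 261 genes (1.99%), 121 higher and 140 lower, was called in the same direction under every alternative that gave a value. The number of calls depended on the libraries: it was 419 without KO replicate 2, 386 without KO replicate 3, 2809 without dHep replicate 3, and 692 to 843 without dHep replicate 2 or any 1 WT library. It was lowest, at 342 (2.72% of genes with a value), when the WT libraries were left out of the fit. In that fit 150 of the 556 higher and 189 of the 708 lower genes were still called. Genes described below without a remark belong to the core of 261; for others, the adjusted p over the alternatives is given.

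**Figure D1:**
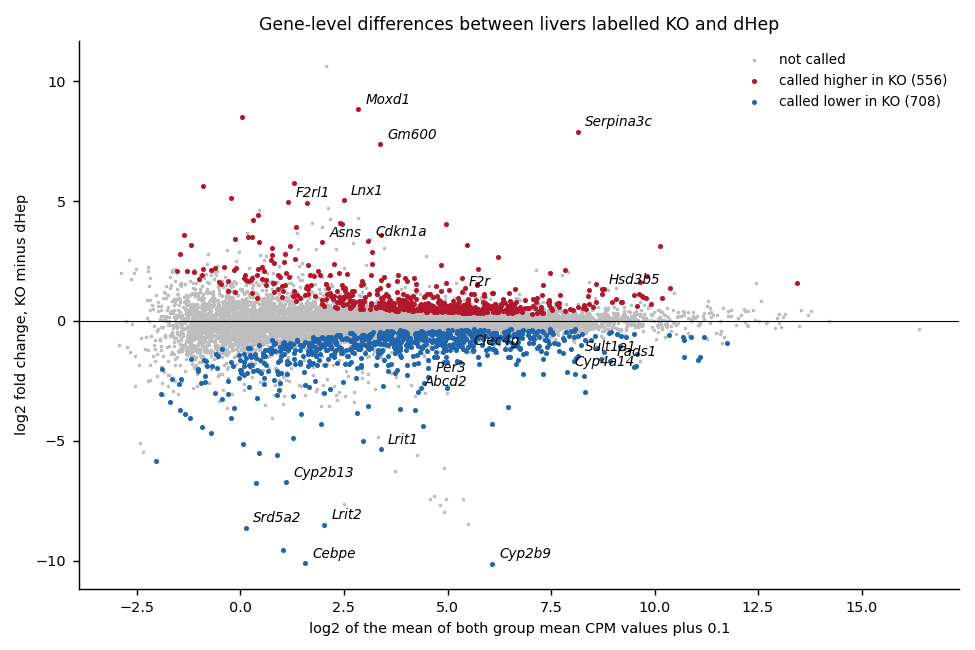
Each point is 1 of 13141 tested genes; the x axis is the log2 of the mean of both group means in CPM plus 0.1 and the y axis the log2 fold change of KO minus dHep, with called genes in red (556 higher) and blue (708 lower). Serpina3c (7.89) and Cyp2b9 (-10.13) stand farthest out among genes with a high level.

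The largest rise among genes of high level was that of Serpina3c. Serpina3c, a serine protease inhibitor of the antichymotrypsin cluster at chr12, was at 1.77, 2.81 and 2.65 CPM in dHep and at 501, 536 and 662 CPM in the libraries labelled KO, a fold change of 7.89 (SE 0.26, adjusted p = 7.97e-07). WT stood with dHep, at 2.48 to 3.78 CPM. Serpina3 genes are near-identical copies, so the split of reads among them is uncertain. Lnx1, a ubiquitin ligase, was at 0.049 to 0.482 CPM in dHep and at 10.4 to 10.9 CPM in KO (fold change 5.04, SE 0.42, adjusted p = 0.000313).

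H28, a minor histocompatibility antigen that RefSeq also lists as the interferon-stimulated gene Ifi44l, had no read in dHep and 115 reads in KO, at least 49.6-fold higher when the empty group is set to a summed 3 reads. Moxd1, a monooxygenase, had 2 reads in dHep and 905 in KO, a ratio of 586 (95% counting interval 162 to 4850). Its adjusted p was 0.0041 and ran from 1.4e-05 to 0.111 over the alternatives, with the highest in limma voom. Gm600 rose by 7.37, Ear11, an eosinophil-type ribonuclease with near-identical copies, by 5.74 and Gm5512 by 5.15. Mep1b, a meprin protease subunit, was at 14.5 CPM in KO replicate 1 but at 1.22 and 1.5 CPM in the other KO libraries, against 0.0981 to 0.27 CPM in dHep. Its adjusted p was 0.0194, with 0.0094 to 0.219 over the alternatives; it lost its call without dHep replicate 2 (0.0597), when only the 6 libraries were fitted (0.0616) and in limma voom (0.219).

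The largest falls were led by Cyp2b9, a cytochrome P450 typical of female liver. It was at 84.3, 149 and 170 CPM in dHep, at 352 to 592 CPM in WT, and at 0.0939, 0.136 and 0.115 CPM in the libraries labelled KO, so no KO liver came near the other groups. The fold change was -10.13 (SE 0.46, adjusted p = 6.34e-06). Its neighbour Cyp2b13 was at 2.07 to 6.26 CPM in dHep and at 0 to 0.047 CPM in KO (2 reads; ratio 118-fold, interval 32.3 to 977); its adjusted p of 0.00417 reached 0.126 in limma voom. The 2 genes are near-identical, so their split is uncertain.

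Several further genes were close to absent in the libraries labelled KO. Cebpe, a transcription factor of myeloid cells, had 429 reads in dHep and 0 in KO, at least 110-fold lower. Srd5a2, a steroid 5-alpha reductase, had 162 reads in dHep and 0 in KO, at least 41.7-fold lower. Lrit2 was at 6.30, 10.4 and 7.01 CPM in dHep and had 1 read in KO (ratio 472-fold, interval 84.4 to 18700), and its neighbour Lrit1 fell from 16.6 to 24.4 CPM to 0.289 to 0.723 CPM. These neighbours are leucine-rich repeat genes best known from the retina. Kcnk10, a potassium channel, fell by 5.59 on the log2 scale. The unnamed gene 1810053B23Rik had 175 reads in dHep and 1 in KO. WT livers carried Cebpe, Srd5a2, Lrit1, Lrit2 and Kcnk10 at levels like those of dHep: 5 to 7.85, 1.57 to 2.14, 18.7 to 24.6, 5.19 to 6.57 and 2.30 to 3.98 CPM.

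Dct, a pigment enzyme, had 272 reads in dHep and 0 in KO, at least 70-fold lower, with an adjusted p of 0.0269. Its p exceeded 0.05 without any 1 of the KO libraries (0.0574 to 0.0785), with only the 6 libraries in the fit and under the replicate block, and ran from 9.3e-06 to 0.0785 over all alternatives. Slc22a26, an organic anion transporter, rested mainly on dHep replicate 2, at 6.35 CPM there and 0.27 and 0.834 CPM in the other dHep libraries. Its adjusted p of 0.0363 became 0.0568 to 0.117 without dHep replicate 2, any 1 KO library or any 1 WT library.

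Calls were most frequent on chromosome 14. There, 77 of 453 tested genes were called (17.0%, against 9.62% of all tested genes), 30 higher and 47 lower; the next chromosome, 5, had 12%. Chromosome 14 also held 13 of the 68 calls over 8-fold and 30 of the 261 core genes. It ranked first in share of calls under all 17 alternatives, with 8.39% to 27.4%. Those over 8-fold included Gm600, Ear11 and Entpd4 among the rises and Cebpe, Dct, Lrit1 and Lrit2 among the falls. The others, named after their values were seen, were Slc39a2 (4.10), a zinc transporter; Pnp2 (3.93), a purine nucleoside phosphorylase with a near-identical neighbour; Phyhip (3.51); Grid1 (-4.30), a glutamate receptor subunit; Fam25c (-3.84); and Ppp1r3e (-3.14), a glycogen-targeting phosphatase subunit. Entpd4, a nucleotidase, had an adjusted p of 0.012, with 1.4e-06 to 0.0731 over the alternatives and the highest in limma voom.

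The targeted gene lies on chromosome 13, and its neighbours were examined by distance. Within 2 Mb of F2rl1, 8 of the 24 other tested genes were called (33.3%, against 9.62% of all tested genes), 1 higher and 7 lower. Within 10 Mb it was 12 of 92 (13%), near the 11.3% of all tested genes of chromosome 13. F2r was the 1 higher gene. Lower genes, named after their values were seen, included Gcnt4, a mucin-type glycosyltransferase, at 32.1, 31.7 and 16.4 CPM in dHep and 5.4, 6.01 and 5.14 CPM in KO. Gcnt4 had a fold change of -2.28, Nsa2, a ribosome assembly factor, of -1.12, the mitochondrial elongation factor Gfm2 of -0.85 and the lysosomal sulfatase Arsb of -0.81. Lhfpl2 (adjusted p = 0.0259, 0.0077 to 0.118 over the alternatives, and not called without dHep replicate 2 or any 1 KO or WT library) was also lower. WT was at the dHep side for Gcnt4, Nsa2 and Gfm2, at 33.6 to 34.8, 76.5 to 82 and 120 to 124 CPM.

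**Figure D2:**
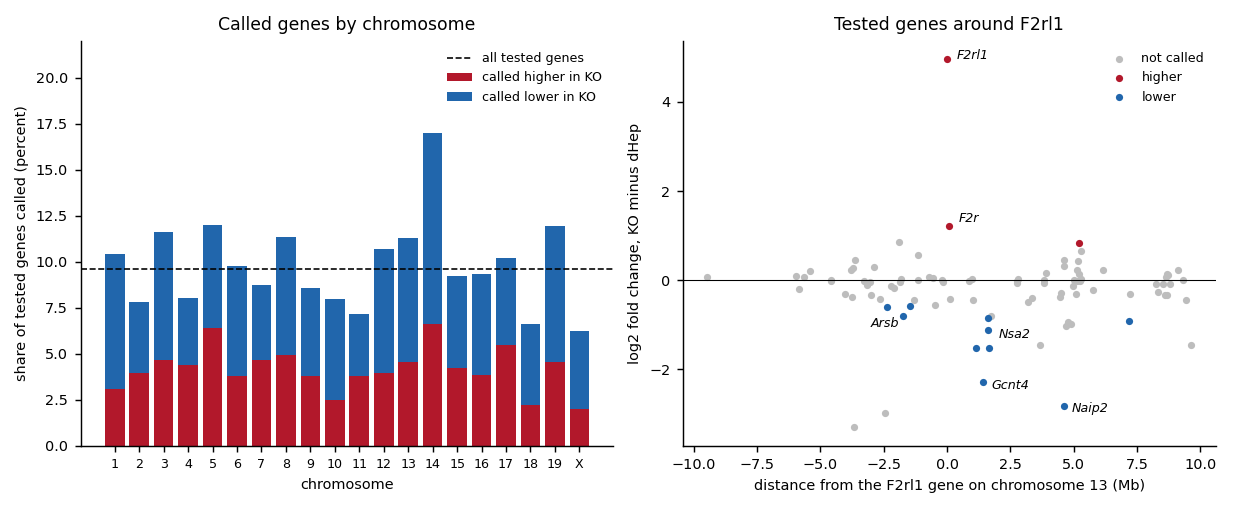
Left, bars give for each chromosome the share of tested genes called higher (red) and lower (blue) in KO, with the 9.62% of all genes as a dashed line; chromosome 14 reaches 17.0%. Right, each point is a tested gene on chromosome 13 within 10 Mb of F2rl1, by its distance in Mb and its log2 fold change of KO minus dHep; F2rl1 (4.96) and F2r (1.23) lie above the line and Gcnt4 (-2.28) and Naip2 (-2.83) below.

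**Figure D3:**
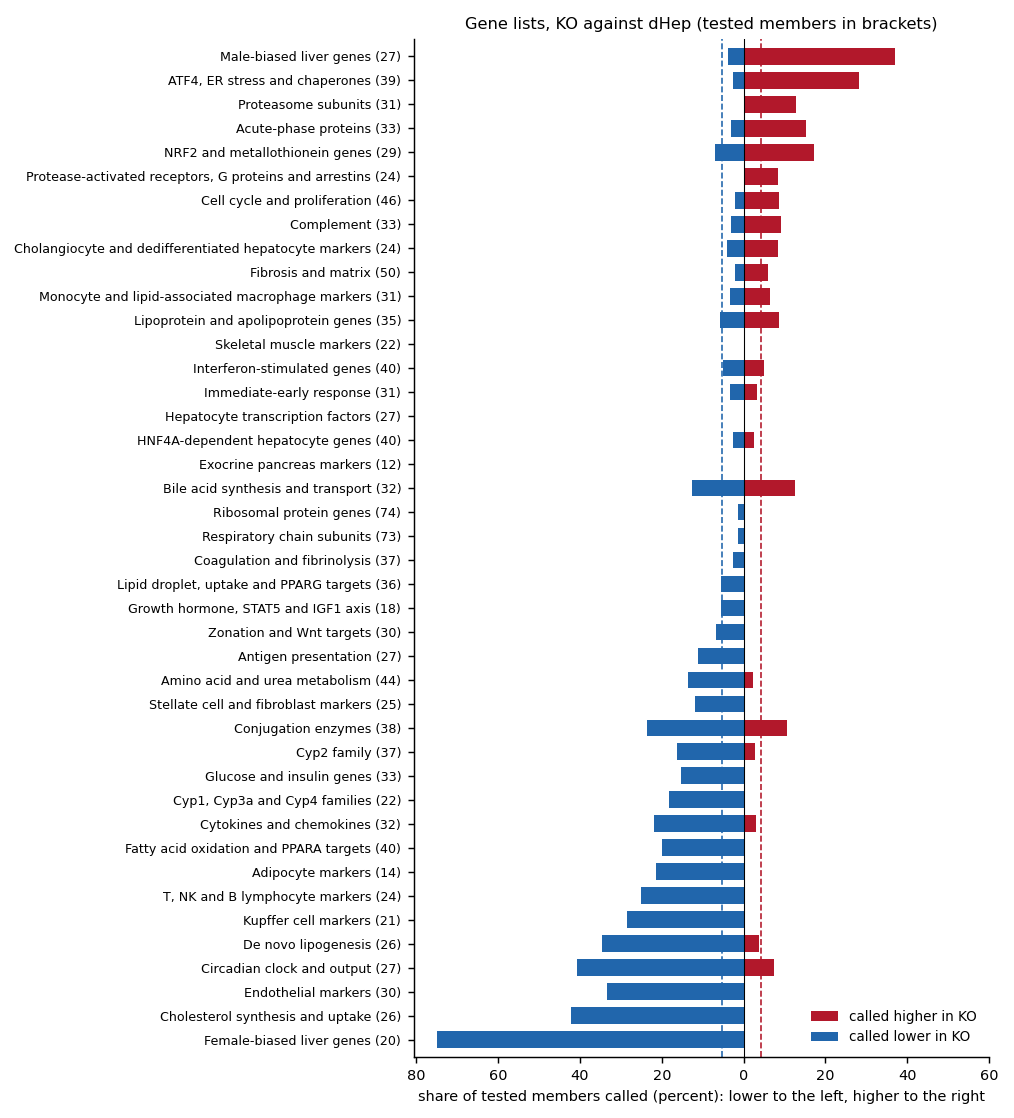
Bars give the share of the tested members of each gene list that was called higher (red, right) or lower (blue, left) in KO; dashed lines mark the 4.23% and 5.39% of all tested genes, and lists of fewer than 10 tested members are left out. Female-biased genes (75.0% lower), cholesterol synthesis (42.3%) and clock genes (40.7%) extend farthest to the left and male-biased genes (37.0% higher) farthest to the right.

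Among lists of at least 10 tested members, the genes that are higher in female than in male liver had the largest share of calls. Sex-biased liver genes follow the pattern of growth hormone pulses, read through the kinase JAK2 and the factor STAT5B. Of 20 tested female-biased genes, 15 were lower in the libraries labelled KO (75.0%, against 5.39% of all tested genes) and 0 higher (0 also at an unadjusted p under 0.05 and in DESeq2), with a median fold change of -2.17; 7 were lower without KO replicate 2 or KO replicate 3. Of 27 tested male-biased genes, 10 were higher (37.0%) and 1 lower, with a median of 1.27; 1 was higher without KO replicate 2 or KO replicate 3, and 5 or 6 without dHep replicate 1, dHep replicate 2, KO replicate 1, WT replicate 2 or WT replicate 3. The sex of the mice is not in the labels, but the 4 tested genes of the Y chromosome had reads in all 9 libraries and were not called: Ddx3y was at 66.5 to 78.1 CPM in dHep and 60.8 to 68.6 CPM in KO, Eif2s3y at 52.6 to 66.3 and 58.1 to 70.8, Kdm5d at 17.2 to 25.4 and 17.7 to 19.4, and Uty at 13.9 to 22.2 and 13.1 to 17.5. Xist, the RNA of the inactive X chromosome of females, was at 0 to 0.107 CPM in the 9 libraries.

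Besides Cyp2b9, 3 female-biased genes fell under every alternative. Abcd2, a peroxisomal transporter of very-long-chain fatty acids, was at 33.2, 52.4 and 17.4 CPM in dHep and 5.54, 3.30 and 4.44 CPM in KO (fold change -2.96, SE 0.38). Cyp4a14 was at 253, 538 and 358 CPM in dHep and 82.9, 73.5 and 109 CPM in KO (-2.12, SE 0.27), and Cyp4a10 at 170, 253 and 294 against 102, 88.7 and 95.3 CPM (-1.33, SE 0.19). WT was above both groups for these 3, at 64.7 to 99.8, 659 to 873 and 306 to 375 CPM. Both Cyp4a genes encode omega-hydroxylases of fatty acids and are textbook targets of the lipid-sensing receptor PPARA, and near-identical copies make their read split uncertain.

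Among male-biased genes, Cspg5, a proteoglycan, rose from 0.049 to 0.321 CPM in dHep to 1.97, 1.99 and 3.00 CPM in KO (fold change 3.28, SE 0.52). Hsd3b5, a steroid dehydrogenase of male liver, was at 282, 217 and 232 CPM in dHep and 548, 586 and 678 CPM in KO, but at 0.107 to 1.01 CPM in WT. Its adjusted p was 0.0335, with 0.0049 to 0.118 over the alternatives and 0.0576 to 0.118 without dHep replicate 2, any 1 KO library or WT replicate 2. Cyp7b1, the oxysterol 7-alpha-hydroxylase, was at 145, 173 and 277 CPM in dHep and 500, 658 and 566 CPM in KO (1.54, SE 0.31, adjusted p = 0.0176). Its p was 0.0534 to 0.0683 without dHep replicate 2, KO replicate 2 or KO replicate 3, and 1.6e-05 to 0.0683 over the alternatives. Serpina1e, an alpha-1-antitrypsin copy, was the 1 male-biased gene called lower, at 2811 to 3975 CPM in dHep and 1004 to 1213 CPM in KO (adjusted p = 0.0442, 0.012 to 0.245 over the alternatives); it was not called without any 1 of dHep replicates 1 and 2, the KO libraries and WT replicate 2.

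Of 18 tested genes of the growth hormone, STAT5 and IGF1 axis, the prolactin receptor gene Prlr was the 1 called, lower in KO at 108, 78.3 and 92.6 CPM against 132, 200 and 191 CPM in dHep (-0.91, SE 0.19, adjusted p = 0.0185). Its p was 0.0511 to 0.0764 without dHep replicate 2, KO replicate 2 or KO replicate 3, and 0.00015 to 0.0764 over the alternatives; the axis held 2 lower members without dHep replicate 1 or KO replicate 1, and 1 higher without KO replicate 1. The median of the axis was -0.023.

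Drug- and lipid-metabolising P450 enzymes were called lower more often than higher. Of 22 tested members of the Cyp1, Cyp3a and Cyp4 families, 4 were lower (18.2%) and 0 higher, and all 4 belong to Cyp4: Cyp4a14, Cyp4a10, Cyp4a32 (-1.28, SE 0.18) and Cyp4f18 (-4.07, SE 0.57). Cyp4f18, which is known from leukocytes, was low throughout, at 0.589 to 0.69 CPM in dHep and 0 to 0.047 CPM in KO. The median of these 22 was -0.062, and without dHep replicate 3 there was 1 higher member. Of 37 tested Cyp2 genes, 6 were lower (16.2%, against 5.39% of all tested genes) and 1 higher (2.7%, against 4.23%), with a median of -0.146. Without KO replicate 2 and KO replicate 1, 2 and 3 were lower, and without dHep replicates 1 and 3, 2 and 3 were higher. The higher gene was Cyp2u1, at 10.1 to 23.3 CPM in dHep and 33.6 to 53.5 CPM in KO (adjusted p = 0.0277, 0.00037 to 0.0751 over the alternatives), and it was not called without any 1 KO library, WT replicate 2 or WT replicate 3.

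Conjugation enzymes, which make drugs, hormones and bilirubin soluble, moved in both directions: 9 of 38 were lower (23.7%) and 4 higher (10.5%), with a median of -0.167. Sult1a1, a phenol sulfotransferase, was at 299, 503 and 451 CPM in dHep and 157, 141 and 157 CPM in KO (-1.46, SE 0.18, adjusted p = 0.0027). Ugt3a1 (-1.18, SE 0.16), Gstt3 (-1.72, SE 0.24) and Gstt2 (-1.20, SE 0.17) fell with it. Ugt2b35, a glucuronosyltransferase, rose from 241 to 281 CPM to 411 to 440 CPM (0.70, SE 0.12). These enzymes have near-identical copies, so their split is uncertain. Lower members numbered 4 and 5 without KO replicate 2 and KO replicate 3; higher members numbered 2 without either of those and 12 without dHep replicate 3.

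Fatty acid synthesis turns surplus carbon into the lipids of the fatty liver. Of 26 tested genes of de novo lipogenesis, 9 were lower in the libraries labelled KO (34.6%) and 1, the elongase gene Elovl7, higher, with a median of -0.646. Fads1, the delta-5 desaturase that makes arachidonic acid, was the 1 member lower under every alternative: 630, 881 and 703 CPM in dHep and 260, 248 and 185 CPM in KO (-1.68, SE 0.22, adjusted p = 0.00344), with 487 to 795 CPM in WT. The count of lower members was 1 without KO replicate 2 or KO replicate 3, and 4 or 5 without dHep replicate 2, KO replicate 1, WT replicate 2 or WT replicate 3, and Elovl7 (1.90, SE 0.43, adjusted p = 0.0266, 0.00049 to 0.117 over the alternatives) lost its call without any 1 KO library or WT replicate 2. Fads2, the delta-6 desaturase beside it, was at 438, 878 and 563 CPM in dHep and 227, 191 and 202 CPM in KO (-1.60, SE 0.28, adjusted p = 0.0101); its p was 0.0505 and 0.0502 without KO replicate 2 and KO replicate 3, and 9.6e-08 to 0.0505 over the alternatives.

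Acacb, the mitochondrial acetyl-CoA carboxylase, was at 28.4, 108 and 28.9 CPM in dHep and at 7.21 to 8.13 CPM in KO (-2.82, SE 0.52, adjusted p = 0.0129), with 0.0598 and 0.0644 without KO replicate 2 and KO replicate 3 and 0.00011 to 0.0644 over the alternatives. Scd1, the stearoyl-CoA desaturase, was at 2628, 3348 and 1433 CPM in dHep and 1030, 527 and 1068 CPM in KO (-1.50, SE 0.41, adjusted p = 0.049). Its p exceeded 0.05 in 12 of 17 alternatives, from 0.00042 to 0.158, and without dHep replicates 1 or 2, any 1 KO library, WT replicate 2 or WT replicate 3. WT held far more, at 8646 to 18168 CPM. Fasn, the fatty acid synthase, was at 247 to 477 CPM in dHep and 184 to 253 CPM in KO, a difference of -0.68 (SE 0.35) that was not called (adjusted p = 0.241).

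Cholesterol synthesis and uptake followed. Of 26 tested genes, 11 were lower in KO (42.3%) and 0 higher (0 also at an unadjusted p under 0.05 and in DESeq2), with a median of -0.643 and a negative estimate for 24. Pmvk, phosphomevalonate kinase, was at 29, 32.9 and 23.8 CPM in dHep and 14.3, 14.4 and 11 CPM in KO (-1.11, SE 0.18), and Fdft1, squalene synthase on chromosome 14, at 84.3, 102 and 77.4 against 52.4, 50 and 35.7 CPM (-0.93, SE 0.16). The 3 KO livers lay below every dHep liver for both. Insig1, which holds back sterol synthesis, was at 189 to 298 CPM in dHep and 107 to 149 CPM in KO (-0.94, SE 0.19, adjusted p = 0.0192), with 0.0692 and 0.0838 without KO replicate 2 and KO replicate 3 and 1e-04 to 0.0838 over the alternatives. The count of lower members was 4 and 3 without KO replicate 2 and KO replicate 3, and 6 or 7 without dHep replicate 2, KO replicate 1, WT replicate 2 or WT replicate 3.

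Fatty acid oxidation genes and PPARA targets held 8 lower members of 40 tested (20%) and 0 higher, with a median of -0.196. Cyp4a14 and Cyp4a10 were the 2 that fell under every alternative. Cpt1a, the gate of mitochondrial oxidation, was at 604, 804 and 705 CPM in dHep and 493, 402 and 467 CPM in KO (-0.63, SE 0.15, adjusted p = 0.0275), but passed under 8 of 17 alternatives (p from 0.00028 to 0.106) and was not called without dHep replicate 2, KO replicate 2 or 3 or WT replicate 2 or 3. Lower members numbered 2 without KO replicate 2 or KO replicate 3 and 13 without dHep replicate 1; 6 members were higher without dHep replicate 3. Of 36 genes of lipid droplets, lipid uptake and PPARG targets, 2 were lower (5.56%, near the 5.39% of all tested genes) and 0 higher. One was Lpin2, a phosphatidate phosphatase, at 214, 383 and 272 CPM in dHep and 144, 103 and 116 CPM in KO (-1.26, SE 0.21). The other was the lipase gene Lipe (-0.59, SE 0.15, adjusted p = 0.0373), which passed under 8 of 17 alternatives (p from 0.0093 to 0.135) and was not called without dHep replicate 2, KO replicate 2 or 3 or any 1 WT library. Cd36, a fatty acid transporter, was at 66.9 to 104 CPM in dHep, 65.8 to 91.4 CPM in KO and 485 to 577 CPM in WT, a KO-dHep difference of -0.14 (SE 0.19, adjusted p = 0.661). Without dHep replicates 1 or 3, the lower members of that list numbered 5 and 4, and without any 1 of dHep replicate 2, KO replicates 2 and 3 and the WT libraries 1; 6 were higher without dHep replicate 3.

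Of 35 lipoprotein genes, 3 were higher (8.57%, against 4.23% of all tested genes) and 2 lower (5.71%, against 5.39%), with a median of 0.041. Apon, an apolipoprotein gene that lies beside Apof, rose from 326, 343 and 451 CPM in dHep to 666, 697 and 735 CPM in KO (0.91, SE 0.14, adjusted p = 0.00652). Apof itself was at 620 to 868 CPM in dHep and 1036 to 1300 CPM in KO (0.69, SE 0.15, adjusted p = 0.0234), with 0.0561 to 0.0952 without dHep replicate 2, KO replicate 2 or KO replicate 3 and 0.00023 to 0.0952 over the alternatives. Apob, the scaffold of very-low-density lipoprotein, was at 4158, 4210 and 5186 CPM in dHep and 6462, 5630 and 6506 CPM in KO, without overlap, but the difference of 0.46 (SE 0.18) was not called (adjusted p = 0.13, 0.0044 to 0.343 over the alternatives). Higher members numbered 1 without dHep replicate 2, KO replicate 2 or KO replicate 3 and 7 without dHep replicate 3. Lower members numbered 4 without dHep replicate 3, 1 without KO replicate 1 or WT replicate 1 and 0 without dHep replicate 2, KO replicate 3, WT replicate 2 or WT replicate 3.

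Bile acid genes split evenly, with 4 of 32 higher and 4 lower (12.5% each) and a median of 0.094. Acox2, a peroxisomal oxidase that shortens the side chain of bile acid precursors and lies on chromosome 14, rose from 247, 163 and 250 CPM to 447, 418 and 495 CPM (1.04, SE 0.16). Fgfr4, the receptor through which intestinal FGF15 restrains bile acid synthesis, rose from 26.5 to 32.2 CPM to 43.6 to 46.4 CPM (0.66, SE 0.11). Akr1d1, the steroid 5-beta reductase of bile acid synthesis, fell from 279, 392 and 383 CPM to 170, 130 and 173 CPM (-1.16, SE 0.17). Cyp7a1, the first and rate-limiting step from cholesterol to bile acids, was at 54.4, 262 and 242 CPM in dHep and 35.9, 29.5 and 54 CPM in KO (-2.22, SE 0.50, adjusted p = 0.0264), and dHep replicate 1 lay beside the KO values. Its p was 0.0658 to 0.105 without dHep replicate 2 or any 1 KO library and 0.0011 to 0.118 over the alternatives. Higher members numbered 9 without dHep replicate 3 and 2 without KO replicate 3, and lower members 1 or 2 without dHep replicate 2 or any 1 KO library.

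The transcription factors that set hepatocyte identity were not called. Of 27 tested, 0 were higher and 0 lower in edgeR's test, with a median of -0.034; at an unadjusted p under 0.05 it was 0 higher and 4 lower, DESeq2 called 0 and 3, and limma voom 0 and 0. Lower members numbered 2, 1 and 3 without dHep replicate 1, dHep replicate 2 and KO replicate 1, and 1 was higher without dHep replicate 3 or KO replicate 1. Hnf4a was at 578, 700 and 539 CPM in dHep and 633, 545 and 648 CPM in KO, a difference of 0.01 (SE 0.13, adjusted p = 0.979), with 476 to 497 CPM in WT. Of 40 tested genes that depend on HNF4A, 1 was higher and 1 lower (2.5% each), with a median of 0.101: Apoc2 (0.57, SE 0.14, adjusted p = 0.0336, 0.002 to 0.129 over the alternatives) and Cyp7a1. Apoc2 was not called without dHep replicate 2, any 1 KO library, WT replicate 2 or WT replicate 3, and 9 of the 40 were higher without dHep replicate 3 and 4 lower without dHep replicate 1. Alb, albumin, was at 76638 to 117680 CPM in dHep and 67696 to 81126 CPM in KO (-0.33, SE 0.33, adjusted p = 0.547).

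Enzymes of amino acid metabolism held 6 lower and 1 higher of 44 tested, with a median of -0.254. Got1, cytosolic aspartate aminotransferase, fell from 294, 350 and 306 CPM to 120, 135 and 124 CPM (-1.32, SE 0.16, adjusted p = 0.00209), a level that WT shared at 107 to 166 CPM. Gpt2, mitochondrial alanine aminotransferase, fell by 1.11 (SE 0.18), liver glutaminase Gls2 by 0.81 (SE 0.12) and Acmsd, which diverts tryptophan away from NAD synthesis, by 1.07 (SE 0.17). Lower members numbered 14 without dHep replicate 1. Prodh2, a hydroxyproline dehydrogenase, was the 1 higher (0.47, SE 0.10, adjusted p = 0.0248, 0.00087 to 0.0984 over the alternatives); it was not called without dHep replicate 2, any 1 KO library or WT replicate 2, and the higher members numbered 3 and 2 without dHep replicates 1 and 3.

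Of 33 glucose and insulin genes, 5 were lower (15.2%) and 0 higher (0 also at an unadjusted p under 0.05 and in DESeq2), with a median of -0.237; 2 were lower without KO replicate 2 or KO replicate 3, and 1 was higher without dHep replicate 3. Insr, the insulin receptor, was at 145, 195 and 154 CPM in dHep and 97.6, 76.9 and 83.8 CPM in KO (-0.94, SE 0.13, adjusted p = 0.00412), with 175 to 181 CPM in WT. Pfkfb1, the liver enzyme that sets fructose 2,6-bisphosphate, fell from 34.8, 49.6 and 54.7 CPM to 19.7, 19.9 and 21 CPM (-1.20, SE 0.18). Every KO liver lay below every dHep and WT liver for both genes.

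**Figure D4:**
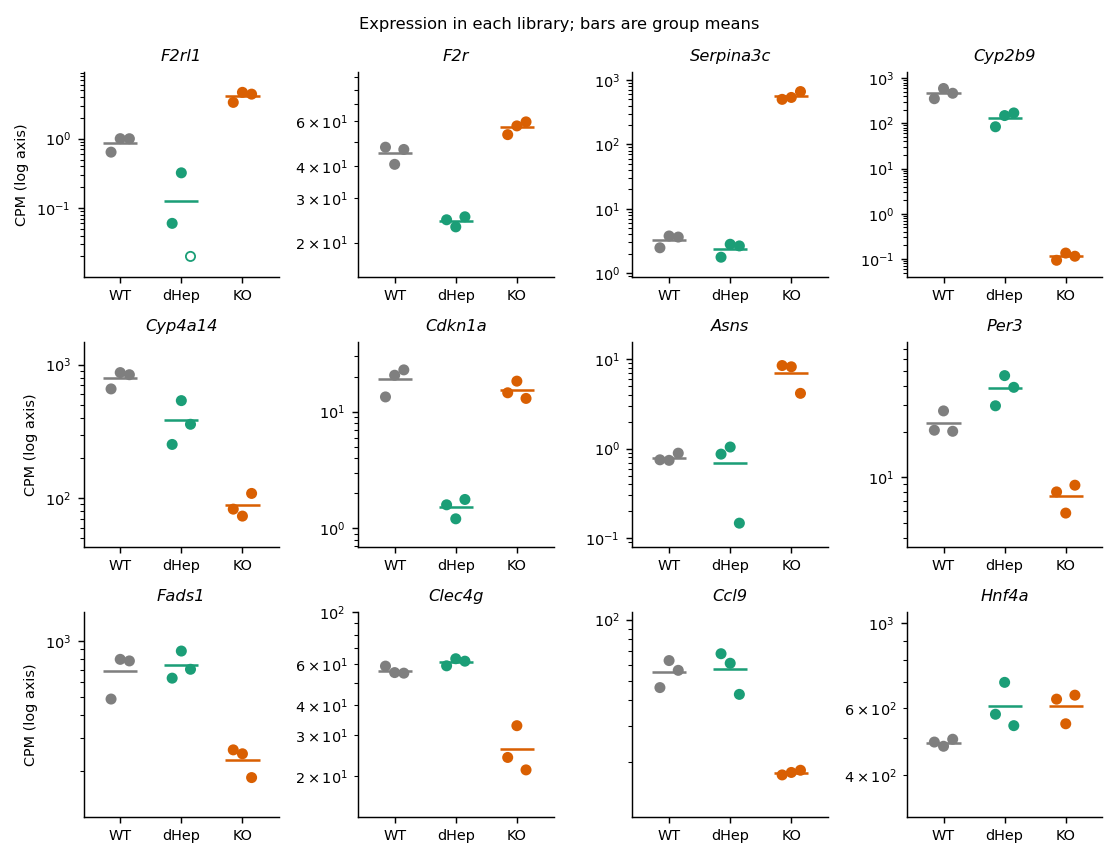
Points are single libraries and bars group means in CPM on a log axis for 12 genes in WT, dHep and KO; an open point at the foot of the F2rl1 panel is a library with 0 reads, drawn at 0.02 CPM. KO and dHep overlap in none of the panels except Hnf4a (539 to 700 against 545 to 648 CPM).

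Clock genes were called lower more often than higher in the libraries labelled KO. The hepatic clock runs on CLOCK and BMAL1, which bind E-box sequences and drive their own repressors, the PER and CRY proteins and the REV-ERB receptors, and the output factors DBP, TEF and HLF, which bind D-boxes. Of 27 tested clock and output genes, 11 were lower in the libraries labelled KO (40.7%) and 2 higher (7.41%), with a median of -0.797. Lower members numbered 5 and 6 without KO replicate 2 and KO replicate 3, and higher members 4 without dHep replicate 1, 0 without KO replicate 2 and 1 without any other library. The time of day at which the livers were taken is not given in the sources used here, so it cannot be told apart from the genotype.

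Per3 was at 29.5, 46.5 and 39 CPM in dHep and 8.03, 5.83 and 8.89 CPM in KO (-2.34, SE 0.22, adjusted p = 0.000629), with 20.1 to 27.3 CPM in WT. Gm129, the clock repressor also called Ciart, was at 5.01, 11.4 and 4.51 CPM in dHep and 0.986, 0.588 and 1.04 CPM in KO (-3.01, SE 0.42). The output factors fell with them: Tef from 171, 271 and 206 CPM to 98.8, 66.2 and 106 CPM (-1.26, SE 0.21) and Dbp from 73, 80.6 and 53.6 CPM to 33.1, 19.5 and 35.9 CPM (-1.23, SE 0.22). KO and dHep overlapped for none of these 4. Other genes of the negative limb and the output were not called: Per1 (-1.36, SE 0.41, adjusted p = 0.0659), Cry1 (-0.93, SE 0.38, adjusted p = 0.142), the REV-ERB gene Nr1d1 (0.36, SE 0.55, adjusted p = 0.699) and Hlf (-0.54, SE 0.16, adjusted p = 0.0678). Per2 was at 30.6 to 51.6 CPM in dHep and 14.3 to 21.4 CPM in KO (-1.22, SE 0.23, adjusted p = 0.0131, 1.8e-05 to 0.0563 over the alternatives, with the highest when dHep replicate 2 and KO replicate 1 were both left out). Nr1d2, a REV-ERB gene on chromosome 14, was at 91.8 to 144 CPM in dHep and 52.5 to 79.2 CPM in KO (-0.91, SE 0.18, adjusted p = 0.0176, 8.3e-05 to 0.0731 over the alternatives) and was not called without KO replicate 2 or 3.

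The 2 higher members were Arntl, which encodes BMAL1, at 2.33 to 4.98 CPM in dHep and 6.35 to 11.4 CPM in KO, and Leo1, a subunit of an RNA polymerase II elongation complex that is no core clock gene, at 12.1 to 15.3 and 21 to 24.1 CPM. Arntl rose by 1.25 (SE 0.34, adjusted p = 0.049) but passed under 5 of 17 alternatives, with p from 0.0055 to 0.18, and failed without dHep replicates 2 or 3, any 1 KO library or any 1 WT library. Leo1 rose by 0.72 (SE 0.13, adjusted p = 0.0116) and had a p of 0.0527 without KO replicate 2, the highest over the alternatives (from 0.00016).

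The RefSeq promoters of 3 fallen clock genes are shown because they hold the clock motifs within the 250 bases before the gene's start (build GRCm38.p6, read 5′ to 3′ on the gene's strand). Capitals mark the E-box CACGTG in Gm129 and Tef and the D-box TTATGTAA in Per3, searched on both strands.
Gm129, chr3:95882229-95882478, minus strand: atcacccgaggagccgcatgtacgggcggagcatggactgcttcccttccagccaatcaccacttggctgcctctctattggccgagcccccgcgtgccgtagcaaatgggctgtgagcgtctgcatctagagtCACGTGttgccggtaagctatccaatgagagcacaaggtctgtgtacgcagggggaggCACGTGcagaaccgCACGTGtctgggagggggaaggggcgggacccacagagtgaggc
Tef, chr15:81802423-81802672, plus strand: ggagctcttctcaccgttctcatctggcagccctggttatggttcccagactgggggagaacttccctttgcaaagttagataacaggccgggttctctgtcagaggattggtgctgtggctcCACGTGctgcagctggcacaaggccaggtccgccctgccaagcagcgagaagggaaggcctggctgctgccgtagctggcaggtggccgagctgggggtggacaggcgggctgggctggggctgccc
Per3, chr4:151044666-151044915, minus strand: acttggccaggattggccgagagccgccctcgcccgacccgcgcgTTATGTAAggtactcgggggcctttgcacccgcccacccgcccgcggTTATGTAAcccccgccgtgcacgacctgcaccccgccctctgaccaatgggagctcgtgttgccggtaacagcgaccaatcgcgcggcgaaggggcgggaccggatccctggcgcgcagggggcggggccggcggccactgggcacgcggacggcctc

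Gm129 held 3 E-boxes, Tef 1 and Per3 2 D-boxes. Over all 32851 promoters of that length, 6.02% held the E-box and 0.819% the D-box. Of the 9 called clock genes with a promoter in the table, 2 held an E-box (22.2%) and 1 a D-box (11.1%); of the 12 tested but not called, 4 held an E-box (33.3%) and 0 a D-box. A match is a run of letters, and binding was not measured.

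The KO livers did not share a level of the main immediate-early gene. Egr1, a transcription factor induced within minutes of a stimulus, was at 88.8, 104 and 78.1 CPM in dHep and at 91.6, 11.6 and 13.3 CPM in KO, and its difference of -1.22 (SE 0.66) was not called (adjusted p = 0.255, 0.00048 to 0.507 over the alternatives). Of 31 tested immediate-early genes, 1 was higher (Jund, 0.92, SE 0.20, adjusted p = 0.0214, 0.00087 to 0.0874 over the alternatives) and 1 lower (Maff, -1.30, SE 0.25, adjusted p = 0.0148, 0.00012 to 0.0666), with a median of 0.008. Without KO replicate 1, 9 were lower and 1 higher. Jund was not called without KO replicate 2, and Maff not without KO replicate 2 or KO replicate 3.

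The endoplasmic reticulum (ER) folds the proteins that hepatocytes secrete. The unfolded protein response raises its chaperones through ATF6 and XBP1, and amino acid enzymes such as Asns through ATF4. Of 39 tested genes of these pathways, 11 were higher (28.2%, against 4.23% of all tested genes) and 1 lower, with a median of 0.48. Higher members numbered 5, 4 and 7 without KO replicate 2, KO replicate 3 and WT replicate 2.

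Hyou1, an ER chaperone of the HSP70 class, rose from 98.7, 118 and 85.9 CPM in dHep to 181, 235 and 222 CPM in KO (1.08, SE 0.15, adjusted p = 0.00412). Dnajb11, an HSP40-type protein of the ER, rose from 68.6, 62.2 and 77.6 CPM to 101, 128 and 116 CPM (0.72, SE 0.12). Asns, asparagine synthetase, rose from 0.869, 1.04 and 0.147 CPM to 8.5, 8.23 and 4.16 CPM (3.29, SE 0.51). WT lay with dHep for all 3, at 114 to 140, 70.1 to 81.9 and 0.741 to 0.891 CPM.

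Hspa5, the master chaperone BiP, was at 474, 645 and 580 CPM in dHep and 750, 1382 and 1240 CPM in KO (0.99, SE 0.22, adjusted p = 0.0253), and passed under 12 of 17 alternatives (p from 2e-04 to 0.0937), but not without dHep replicate 1, KO replicate 2 or 3 or WT replicate 2. Calr, calreticulin, was at 556, 514 and 751 CPM in dHep and 1019, 1255 and 1226 CPM in KO (0.94, SE 0.17, adjusted p = 0.0111, 3e-06 to 0.0523 over the alternatives, with the highest without KO replicate 3). KO replicate 1 was the lowest KO liver for Hyou1, Dnajb11, Hspa5 and Calr. Creld2 (1.44, SE 0.33, adjusted p = 0.0275, 0.00026 to 0.0941) and Pdia6, a disulfide isomerase (0.66, SE 0.15, adjusted p = 0.0273, 0.0015 to 0.0968), passed under 9 and 8 of 17; both were not called without dHep replicate 1 or 2, KO replicate 2 or 3 or WT replicate 2 or 3. Atf6, the sensor itself, was the 1 lower member, at 82.4 to 118 CPM in dHep and 58.9 to 74.6 CPM in KO (-0.65, SE 0.15, adjusted p = 0.025); its p was 0.0619 to 0.0996 without dHep replicate 2, KO replicate 2 or KO replicate 3, and 0.00076 to 0.0996 over the alternatives. Other ER chaperones and folding factors were not called: Hsp90b1 (0.53, SE 0.16, adjusted p = 0.0666), Pdia3 (0.57, SE 0.17, adjusted p = 0.0687), Canx (0.30, SE 0.14, adjusted p = 0.2), Dnajc3 (0.29, SE 0.11, adjusted p = 0.128) and Dnajb9 (0.35, SE 0.27, adjusted p = 0.422). Atf4 mRNA was not called (0.48, SE 0.17, adjusted p = 0.11), nor was Ddit3, which encodes the stress factor CHOP (1.18, SE 0.35, adjusted p = 0.0619).

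The promoters of 4 higher chaperone genes hold 1 shared sequence pattern, the ER stress response element (CCAAT, any 9 bases, then CCACG), and are shown for it (RefSeq, 250 bases before the gene's start, GRCm38.p6, gene strand, both strands searched). Capitals mark the element, which reads in reverse complement in Creld2 and Calr.
Hspa5, chr2:34771840-34772089, plus strand: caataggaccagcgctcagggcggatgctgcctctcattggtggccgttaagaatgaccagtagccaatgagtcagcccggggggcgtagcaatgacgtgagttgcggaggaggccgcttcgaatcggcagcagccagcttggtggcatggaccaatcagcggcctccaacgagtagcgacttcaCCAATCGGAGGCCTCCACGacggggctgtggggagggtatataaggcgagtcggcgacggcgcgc
Calr, chr8:84846932-84847181, minus strand: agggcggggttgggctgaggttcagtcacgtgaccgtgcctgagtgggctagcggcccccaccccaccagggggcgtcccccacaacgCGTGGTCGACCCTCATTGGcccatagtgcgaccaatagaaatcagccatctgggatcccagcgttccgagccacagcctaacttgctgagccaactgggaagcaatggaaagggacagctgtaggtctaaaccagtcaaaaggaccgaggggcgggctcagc
Pdia6, chr12:17266339-17266588, plus strand: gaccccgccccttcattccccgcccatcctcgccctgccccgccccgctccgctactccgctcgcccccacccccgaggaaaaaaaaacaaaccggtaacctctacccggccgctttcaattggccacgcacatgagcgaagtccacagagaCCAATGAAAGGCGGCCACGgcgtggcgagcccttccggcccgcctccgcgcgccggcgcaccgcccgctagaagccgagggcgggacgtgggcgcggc
Creld2, chr15:88819396-88819645, plus strand: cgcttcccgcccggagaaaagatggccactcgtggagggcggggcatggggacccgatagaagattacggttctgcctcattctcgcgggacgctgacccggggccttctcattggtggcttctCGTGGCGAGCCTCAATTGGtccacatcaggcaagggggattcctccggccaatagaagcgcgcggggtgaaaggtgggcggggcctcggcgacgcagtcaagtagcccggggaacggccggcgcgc

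The element stood in 37 of 32851 promoters of that length (0.113%). In the list it stood in 4 of 9 called genes with a promoter (44.4%) and in 4 of 23 tested genes that were not called (17.4%). Textbook members of the response were put in the list for their function, and many are known for this element.

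**Figure D5:**
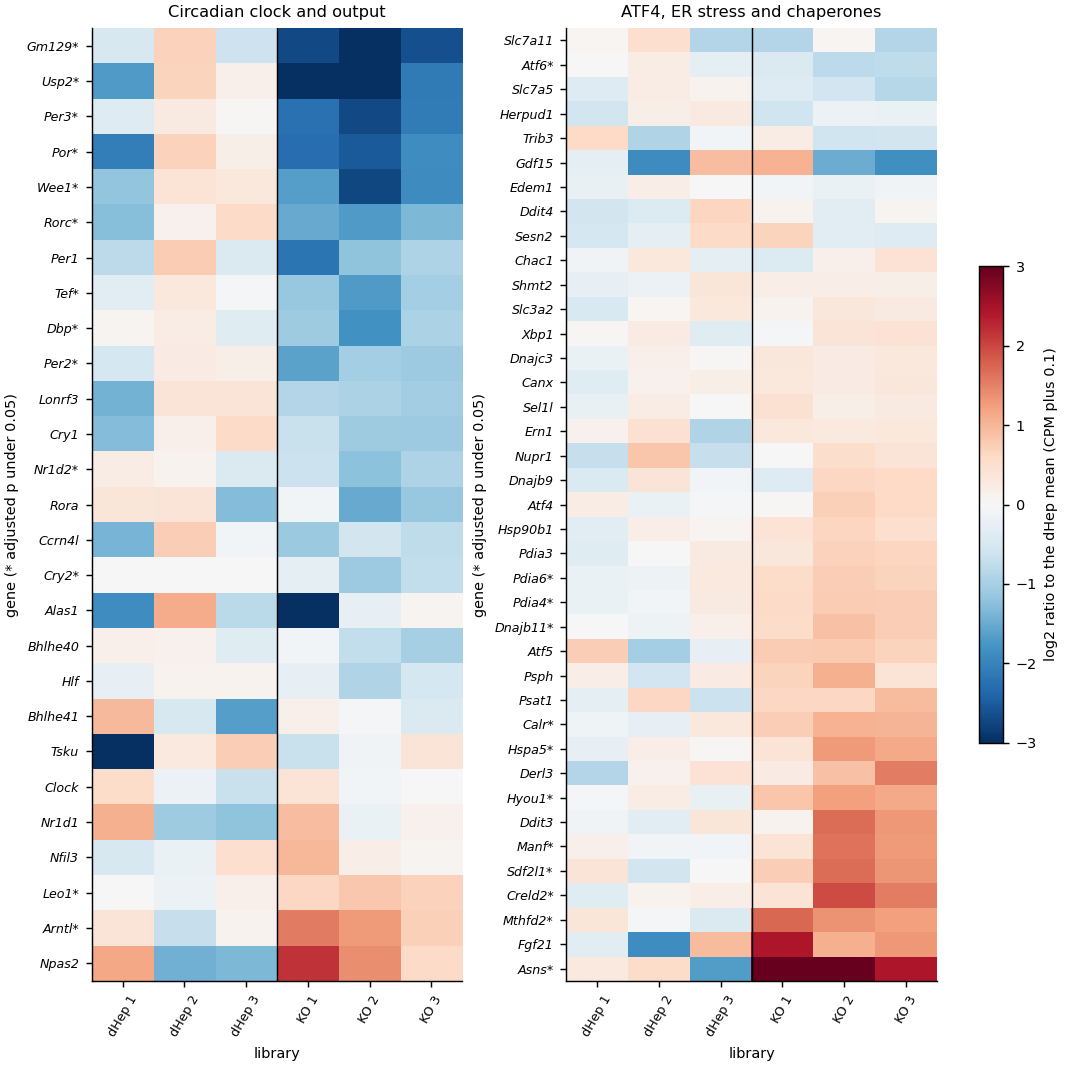
Each row is a tested gene and each column 1 of the 6 libraries; colour is the log2 ratio of CPM plus 0.1 to the dHep mean plus 0.1, cut at -3 and 3, and an asterisk marks a called gene. On the left the 3 KO columns are blue for Per3, Gm129, Tef and Dbp; on the right they are red for Asns, Hyou1 and Calr, with KO replicate 1 palest for Hyou1 and Calr.

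Of 29 NRF2 targets and metallothioneins, 5 were higher and 2 lower, with a median of 0.152. Ugdh, which makes UDP-glucuronate, rose from 100, 125 and 148 CPM to 227, 218 and 234 CPM (0.86, SE 0.14, adjusted p = 0.00902). Srxn1, sulfiredoxin, rose by 0.79 (SE 0.18, adjusted p = 0.0277, 0.0016 to 0.0957 over the alternatives) and was not called without KO replicate 2 or 3 or WT replicate 2. Mt1, a metallothionein, was at 6.12, 16.3 and 12.1 CPM in dHep and 2.96, 3.26 and 3.52 CPM in KO (-1.82, SE 0.40, adjusted p = 0.0248, 9.5e-05 to 0.162). Higher members numbered 2 without KO replicate 2 or KO replicate 3 and 10 without dHep replicate 3, and lower members 0 without dHep replicate 2 or any 1 KO library.

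Summed markers of endothelial cells, Kupffer cells and stellate cells with fibroblasts were lower in the libraries labelled KO. The sums were not tested, and most single markers of each list were not called. In whole tissue fewer cells of a type and less RNA per cell cannot be told apart. Summed over 30 endothelial markers the level was 475 to 699 CPM in KO, 754 to 1036 CPM in dHep and 971 to 1095 CPM in WT. Over 21 Kupffer cell markers it was 528 to 664 CPM in KO, 700 to 1104 CPM in dHep and 937 to 1084 CPM in WT. Over 25 stellate cell and fibroblast markers it was 577 to 639 CPM in KO, 791 to 1110 CPM in dHep and 821 to 917 CPM in WT. KO and dHep did not overlap in any of the 3 sums, and at least 1 read was found for every marker in each group.

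Of the 30 endothelial markers, 10 were lower (33.3%) and 0 higher (1 at an unadjusted p under 0.05, 0 in DESeq2), with a median of -0.543. Clec4g, a lectin of sinusoidal endothelium, fell from 59, 63.2 and 61.7 CPM to 24, 32.8 and 21.2 CPM (-1.24, SE 0.15, adjusted p = 0.00184), with 54.9 to 58.8 CPM in WT. Flt1, a receptor for vascular growth factors, fell by 1.10 (SE 0.18) and Ehd3, a membrane-trafficking protein of sinusoidal endothelium, by 1.02 (SE 0.18). Lower members numbered 4 without dHep replicate 2 or KO replicate 1, 3 without KO replicate 3 and 6 without WT replicate 2, and 1 was higher without dHep replicate 1.

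Of the 21 Kupffer cell markers, 6 were lower (28.6%) and 0 higher (0 also at an unadjusted p under 0.05 and in DESeq2), with a median of -0.896. Without KO replicate 2 edgeR called 0 lower. Lower members numbered 2 without dHep replicate 2, KO replicate 1 or KO replicate 3, 3 without WT replicate 2 or WT replicate 3, 11 without dHep replicate 3, 12 under the replicate block and 14 in DESeq2; 1 was higher without dHep replicate 1. Clec4f, the Kupffer cell lectin, was at 77, 130 and 78.7 CPM in dHep and 27.2, 41.1 and 57.9 CPM in KO (-1.18, SE 0.29, adjusted p = 0.0336, 0.00071 to 0.113 over the alternatives) and was not called without dHep replicate 2, KO replicate 1 or 2 or WT replicate 2 or 3. Folr2, a folate receptor of resident macrophages, was at 8.88 to 14.8 CPM in dHep and 3.10 to 5.48 CPM in KO (-1.36, SE 0.26, adjusted p = 0.0134, 2.3e-05 to 0.0509). Its highest p came without KO replicate 2.

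Of the 25 stellate and fibroblast markers, 3 were lower and 0 higher, with a median of -0.403; 0 were lower without KO replicate 3, 6 without dHep replicate 3, and 1 was higher without dHep replicate 2. They were Cxcl12 (-0.82, SE 0.14, adjusted p = 0.0103, 2.8e-06 to 0.0542 over the alternatives), the growth factor Hgf (-1.32, SE 0.27, adjusted p = 0.0186, 6.7e-05 to 0.0672) and the collectin Colec10 (-1.11, SE 0.24, adjusted p = 0.0217, 0.00017 to 0.0923). Cxcl12 was not called without KO replicate 3, Hgf not without KO replicate 2 or 3 and Colec10 not without KO replicate 1 or 3.

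Among markers of lipid-associated macrophages and monocytes, 2 of 31 were higher (6.45%, against 4.23%) and 1 lower (3.23%, against 5.39%), with a median of -0.076. Atp6v0d2, a proton pump subunit, fell from 2.43, 6.47 and 7.01 CPM to 0.892, 0.497 and 0.981 CPM (-2.74, SE 0.42, adjusted p = 0.00642). Gpnmb, a glycoprotein of lipid-laden macrophages, was at 0.3 to 0.482 CPM in dHep and 0.517, 1.94 and 2.19 CPM in KO (1.93, SE 0.48, adjusted p = 0.0363, 0.00092 to 0.19 over the alternatives), with 10.3 to 13.6 CPM in WT. Mmp12, macrophage elastase, was at 0.245 to 1.11 CPM in dHep and 1.5, 3.39 and 5.19 CPM in KO (2.46, SE 0.55, adjusted p = 0.0261, 2.6e-05 to 0.143), with 15.7 to 22.9 CPM in WT. Gpnmb and Mmp12 both lost their call without dHep replicate 2, KO replicate 2, KO replicate 3 or WT replicate 3, and Gpnmb also without dHep replicate 1, WT replicate 1 or WT replicate 2. Higher and lower members numbered 6 each without dHep replicate 3.

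Lymphocyte markers held 6 lower of 24 tested (25.0%) and 0 higher, with a median of -0.524. Cd22, a B cell receptor, fell from 1.68, 2.97 and 1.81 CPM to 0.611, 0.316 and 0.519 CPM (-2.15, SE 0.34, adjusted p = 0.00729), and Klrk1, the NKG2D receptor of NK and T cells, from 1.68, 1.89 and 1.47 CPM to 0.564, 0.271 and 0.519 CPM (-1.90, SE 0.31). The summed level of all 30 lymphocyte markers overlapped, at 32 to 58.2 CPM in KO and 39.2 to 49.5 CPM in dHep. Lower members numbered 3 without KO replicate 1 and 2 without KO replicate 2 or 3, and 1 was higher without dHep replicate 2 or KO replicate 3. Of 6 tested neutrophil markers, 4 were lower, among them Csf3r (-1.23, SE 0.23, adjusted p = 0.0143, 0.00081 to 0.0635 over the alternatives) and S100a8 (-2.09, SE 0.47, adjusted p = 0.027, 0.00086 to 0.0806), and 1 was higher, Lcn2 (1.30, SE 0.29, adjusted p = 0.0252, 0.00024 to 0.133), which hepatocytes also make. Csf3r was not called without KO replicate 3, S100a8 not without dHep replicate 1, KO replicate 2 or 3 or WT replicate 3, and Lcn2 not without dHep replicate 1 or 2 or KO replicate 2 or 3;  lower neutrophil markers numbered 0 to 2 without dHep replicates 1 or 2 or any 1 KO or WT library, and 5 without dHep replicate 3. The summed neutrophil markers, 12.7 to 23 CPM in KO and 13 to 19.6 CPM in dHep, overlapped.

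Of 32 cytokine and chemokine genes, 7 were lower (21.9%) and 1 higher, with a median of -0.103. Ccl9, a macrophage chemokine, fell from 67.9, 60.9 and 42.8 CPM to 17.2, 17.7 and 18.1 CPM (-1.70, SE 0.18, adjusted p = 0.000972), with 46.2 to 62.8 CPM in WT. Lower members numbered 4 without dHep replicate 2, KO replicate 2 or any 1 WT library and 2 without KO replicate 3; the higher one, Cxcl10 (1.04, SE 0.26, adjusted p = 0.0371, 0.0041 to 0.121), was not called without dHep replicates 1 or 2, KO replicates 2 or 3 or any 1 WT library.

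Of 40 interferon-stimulated genes, 2 were higher and 2 lower (5% each, near the 4.23% and 5.39% of all tested genes), with a median of 0.022. H28 was the 1 that passed under every alternative. Of 27 genes of antigen presentation, 3 were lower (11.1%, against 5.39%) and 0 higher, with a median of -0.331. H2-Q6, a class Ib molecule with near-identical copies, fell from 7.4, 11.1 and 4.46 CPM to 1.74, 2.67 and 2.42 CPM (-1.75, SE 0.31, adjusted p = 0.0112). Nlrc5, the transactivator of class I genes, was at 14.6 to 35.1 CPM in dHep and 7.70 to 10.7 CPM in KO (-1.48, SE 0.28, adjusted p = 0.0143, 8.8e-06 to 0.0684 over the alternatives) and was not called without KO replicate 2. Higher interferon genes numbered 5 without dHep replicate 1 and 1 without dHep replicate 2, KO replicate 3 or any 1 WT library; lower ones numbered 0 without any 1 KO library, WT replicate 1 or WT replicate 2. Lower antigen presentation genes numbered 5 and 6 without dHep replicates 1 and 3 and 1 without KO replicate 2.

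Among liver-secreted proteins of inflammation, 5 of 33 acute-phase genes were higher (15.2%) and 1 lower, with a median of 0.26. Lbp, which carries bacterial lipopolysaccharide, rose from 56.1 to 65.6 CPM to 86.7 to 108 CPM (0.61, SE 0.11, adjusted p = 0.0112, 3.1e-05 to 0.0562 over the alternatives, with the highest when only the 6 libraries were fitted). Serpina3m rose by 1.13 (SE 0.23, adjusted p = 0.0176, 2.7e-05 to 0.0726) and was not called without KO replicate 2 or 3. Il6ra, the interleukin-6 receptor, was the lower one, at 16.6, 56.1 and 32.2 CPM in dHep and 16.4, 6.33 and 11.1 CPM in KO (-1.63, SE 0.43, adjusted p = 0.0442, 7e-04 to 0.136), and was not called without dHep replicate 2, KO replicates 2 or 3 or any 1 WT library. Higher members numbered 1 without KO replicate 2 or 3 and 3 without dHep replicate 1 or any 1 WT library.

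Of 33 complement genes, 3 were higher (9.09%, against 4.23% of all tested genes) and 1 lower (3.03%, against 5.39%), with a median of 0.078. C9, a pore-forming component, was at 450, 449 and 724 CPM in dHep and 1033, 1037 and 1279 CPM in KO (1.05, SE 0.20, adjusted p = 0.0147, 2e-05 to 0.0666 over the alternatives) and was not called without KO replicate 3. C6, of the same pore, rose by 1.30 (SE 0.28, adjusted p = 0.023, 1e-04 to 0.085) and was not called without dHep replicates 1 or 2 or KO replicates 2 or 3. Of 37 coagulation genes, whose proteases include activators of the PARs, 1 was lower (2.7%, against 5.39%) and 0 higher, with a median of 0.108. The lower one was Plau (-0.81, SE 0.20, adjusted p = 0.0345, 0.024 to 0.165). Plau lost its call without dHep replicate 2 or any 1 KO or WT library; 5 coagulation genes were higher without dHep replicate 3, and 4 and 3 lower without dHep replicates 1 and 3. Higher complement members numbered 0 or 1 without dHep replicate 1, KO replicate 2 or KO replicate 3; lower ones numbered 3 and 2 without dHep replicates 1 and 3 and 8 in DESeq2.

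Of 50 genes of fibrosis and matrix, 3 were higher (6%, against 4.23% of all tested genes) and 1 lower (2%, against 5.39%), with a median of -0.082. Without dHep replicate 3, 6 were higher and 3 lower, and without dHep replicate 1, 2 were lower. Col12a1, a fibril-associated collagen, was at 1.73 to 1.86 CPM in dHep and 3.16 to 3.69 CPM in KO (0.96, SE 0.17, adjusted p = 0.0109, 0.0011 to 0.0803 over the alternatives); it lost its call in limma voom and when only the 6 libraries were fitted. Col1a1, the main fibrillar collagen, was at 2.22, 4.30 and 3.68 CPM in dHep and 3.85, 6.19 and 3.75 CPM in KO (0.45, SE 0.27, adjusted p = 0.301), with 16.1 to 20.2 CPM in WT. The lower gene, Timp3 (-1.28, SE 0.35, adjusted p = 0.0489, 0.0021 to 0.188), passed under 7 of 17 alternatives and was not called without dHep replicate 2 or any 1 KO or WT library.

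Cdkn1a, which encodes the cell-cycle inhibitor p21, rose in the libraries labelled KO. It was at 1.59, 1.20 and 1.77 CPM in dHep and 14.5, 18.3 and 13 CPM in KO (3.33, SE 0.25, adjusted p = 0.000191), while WT was at 13.4, 20.5 and 22.8 CPM, so the dHep livers were the low ones. Of 46 genes of the cell cycle, 4 were higher (8.7%, against 4.23% of all tested genes) and 1 lower (2.17%, against 5.39%), with a median of 0.468. Tk1, thymidine kinase, was the lower one, at 17.1, 39.1 and 52.9 CPM in dHep and 7.78 to 11.4 CPM in KO (-1.95, SE 0.35, adjusted p = 0.0109, 4.2e-07 to 0.0545 over the alternatives), with 0.0545 and 0.0544 without KO replicate 2 and KO replicate 3. Mki67 was at 1.61 to 1.95 CPM in dHep and 2.37 to 3.05 CPM in KO and was not called (0.54, SE 0.21, adjusted p = 0.132). Higher members numbered 1 or 2 without dHep replicate 1, any 1 KO library, WT replicate 2 or WT replicate 3, and 7 without dHep replicate 3.

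Sox9, a factor of bile duct cells and of hepatocytes that take on their features, rose from 1.32, 1.65 and 1.81 CPM to 4.98, 4.66 and 3.35 CPM (1.45, SE 0.24, adjusted p = 0.00849). Of the 24 markers of bile duct and dedifferentiated cells tested with it, 2 were higher and 1 lower, with a median of 0.12: the annexin Anxa2 was higher (0.57, SE 0.13, adjusted p = 0.0261, 0.0034 to 0.101 over the alternatives) and Anxa5 lower (-0.89, SE 0.20, adjusted p = 0.0261, 0.00076 to 0.0751). Anxa2 lost its call without dHep replicate 2, KO replicate 2 or 3 or WT replicate 2, and Anxa5 without dHep replicate 2, KO replicate 3 or WT replicate 2. The 5 defining bile duct markers summed to 8.37 to 30 CPM in KO and 3.39 to 12.3 CPM in dHep, which overlap.

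Ribosomal protein and respiratory chain genes gave few calls. Of 74 ribosomal protein genes, 1 was lower and 0 higher, with a median of 0.102: Rplp0, a stalk protein, was at 245, 283 and 284 CPM in dHep and 135, 150 and 131 CPM in KO (-0.97, SE 0.10, adjusted p = 0.000898). Of 73 respiratory chain subunits, 1 was lower, Sdhd (-0.35, SE 0.09, adjusted p = 0.0346, 9.7e-05 to 0.149 over the alternatives), and it passed under 5 of 17, not without dHep replicate 2 or any 1 KO or WT library. Without dHep replicate 3, 15 ribosomal and 16 respiratory chain genes were higher; without dHep replicate 1, 6 respiratory chain genes were lower. Of 31 proteasome subunits, 4 were higher (12.9%, against 4.23% of all tested genes) and 0 lower, with a median of 0.135. The higher subunits numbered 8 in DESeq2 and 0 without KO replicate 2 or 3. They numbered 2 without dHep replicate 2 or KO replicate 1 and 11 without dHep replicate 3. Klf1, an erythroid transcription factor, fell from 1.72 to 1.89 CPM to 0.226 to 0.329 CPM (-2.78, SE 0.32, adjusted p = 0.00166), while the summed erythroid markers were 341 to 398 CPM in KO and 252 to 369 CPM in dHep.

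Of 30 zonation genes, 0 were higher and 2 lower (6.67%, against 5.39% of all tested genes), Gls2 and the P450 Cyp2a5. At an unadjusted p under 0.05 it was 1 higher and 6 lower, and in DESeq2 1 and 5. Cyp2a5 was at 426 to 1775 CPM in dHep and 283 to 339 CPM in KO (adjusted p = 0.02, 5.7e-06 to 0.0852 over the alternatives) and was not called without any 1 KO library. Of 14 adipocyte markers, 0 were higher and 3 lower (Lipe, Thrsp and Nrg4), and 0 were lower without dHep replicate 2, KO replicate 2 or KO replicate 3. Thrsp, a lipogenic protein of liver and fat, had an adjusted p of 0.0483 (0.0073 to 0.196 over the alternatives) and was not called without dHep replicate 2 or 3 or any 1 KO or WT library. Nrg4, a growth factor, had 0.0216 (1.1e-05 to 0.106) and was not called without dHep replicate 2 or any 1 KO library. Markers of pancreas (12 tested), intestine (9) and skeletal muscle (22), and 5 transcripts that mark RNA quality, gave 0 calls in edgeR's test; at an unadjusted p under 0.05 there were 8 lower, 4 higher, 3 lower and 1 higher, and in DESeq2 0, 2 higher, 1 lower and 1 higher. Lower zonation genes numbered 5 without dHep replicate 1 and 1 without KO replicate 2 or 3.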

How the data were processed

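RNA was measured in 9 livers, 3 per genotype, and the 6 dHep and KO libraries were compared. The values are raw counts per gene: the authors counted reads with featureCounts 1.6.2 at strand setting 2, per the file headers, with mm10 gene models. HISAT2 2.1.0, FastQC and DESeq2 are named in the submitters' processing notes. The deposited gene length (summed exon bases, an other unit) was not used in a test. Replicates were not pooled.

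The members and gene lists were chosen with earlier results of these data known. Of 23337 genes, 13141 passed edgeR's expression filter (minimum count 10, minimum total 15). All 9 libraries entered 1 quasi-likelihood fit (edgeR 4.0.16, R 4.3.3, TMM scaling), and KO minus dHep was tested with Benjamini-Hochberg adjustment. The SE is the fold change divided by the root of F. The scripts were tested on simulated data. The 17 alternatives were other size factors, DESeq2 1.42.0, limma 3.58.1 voom, 2 other filters, a fit of the 6 libraries, a replicate block, each library left out, and dHep replicate 2 with KO replicate 1 left out. p-values rest on a spread between mice that was estimated over all 9, WT included. WT libraries correlated at 0.984 to 0.991 and dHep libraries at 0.949 to 0.974, so the spread among dHep can be larger than that estimate. Counting intervals (95%) and floors (3 reads) cover counting error only.

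Named genes were fixed anchors, the 10 largest rises and falls without overlap and with a mean of at least 1 CPM, the 3 called genes of smallest p per list and direction, and markers of libraries that stand apart. Outside that rule, and named after their values were seen, were Acmsd, Atf4, Calr, Canx, Clec4f, Cpt1a, Creld2, Cry1, Cyp4a32, Dbp, Ddit3, Dnajb9, Dnajc3, Gstt2, Hlf, Hsp90b1, Hspa5, Mki67, Naip2, Nr1d1, Nr1d2, Pdia3, Pdia6, Per1, Per2, Srxn1, the Y chromosome genes, Xist and the neighbour and chromosome 14 genes so described. The lists hold 1341 genes of the table, 1240 of them tested. Results of some genes are not reported here.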

Additional observations from a re-analysis of the deposited data

How the results depend on the processing

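No gene called higher or lower between KO and dHep was called in the opposite direction under any of the 17 alternatives, but how many genes were called varied. Against 556 higher, 708 lower and 1264 in all, DESeq2 called 891, 1177 and 2068, limma voom 358, 444 and 802, and a fit of only the 6 dHep and KO libraries 152, 190 and 342. Leaving out 1 library gave 175 to 1313 higher, 211 to 1496 lower and 386 to 2809 in all. With the replicate block it was 402, 552 and 954; the replicate numbers share only a number, since deviations of same-numbered KO and dHep libraries correlated at -0.006, -0.033 and -0.112. The remaining alternatives left these counts within 1.5 times. Of the values recomputed for named genes, 1970 kept direction and side of the threshold, 445 kept only the direction, 4 passed newly and 6 turned sign, all of genes not called: Hnf4a, at 0.01, ran from -0.0685 to 0.124 with 1 library left out, below 0 without dHep replicate 1, dHep replicate 3, KO replicate 1 or KO replicate 3. Cd36, at -0.14, ran from -0.307 to 0.0702 with 1 library left out, above 0 without dHep replicate 3, and was 0.0296 in limma voom. Of the list counts, 1075 stayed within 1.5 times and 489 did not. The cause of these shifts was not tested. At 18683660 to 30509242 reads per library, genes with a few reads in a group have wide counting intervals.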

Other observations

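The single genes given here lie outside the lists. They were chosen after their values were seen, for passing under each of the 17 alternatives, and say nothing of any group of genes. Sec61a1, the channel through which proteins enter the ER, was at 124, 147 and 141 CPM in dHep and 217, 211 and 216 CPM in KO (0.65, SE 0.09), and Ssr1, of the same translocon, rose by 0.60. Syvn1, a ubiquitin ligase that removes misfolded ER proteins, was at 45.2, 33.9 and 46.3 CPM in dHep and 73.2, 116 and 95.8 CPM in KO (1.18, SE 0.18). The cargo receptor Tmed9 rose by 0.86 and the zinc transporter Slc39a7 by 0.72. Tubb4b, a beta-tubulin, was at 65.7, 44.8 and 58.4 CPM in dHep and 125, 160 and 136 CPM in KO (1.32, SE 0.15), Tuba1c rose by 1.12, Tuba4a by 0.74 and Actb by 0.77. Tubulin and actin genes have near-identical copies, so their read split is uncertain.

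Csad, an enzyme on the path from cysteine to taurine, was at 18, 25.2 and 17.6 CPM in dHep. It was at 114, 164 and 109 CPM in KO and 120, 72 and 123 CPM in WT, so the dHep livers were the low ones (2.67, SE 0.25). Gpd1, glycerol-3-phosphate dehydrogenase, was at 332, 189 and 279 CPM in dHep and 590, 550 and 603 CPM in KO (1.12, SE 0.19). Upp2, a uridine phosphorylase, was at 265, 770 and 664 CPM in dHep and 79.2, 49.1 and 88.4 CPM in KO (-2.97, SE 0.38), and Ces1g, a carboxylesterase that hydrolyses lipids, at 158, 312 and 308 against 72.5, 46.9 and 46.6 CPM (-2.23, SE 0.27). Hamp2, a hepcidin copy, fell by 4.31, and dHep replicate 3 was its highest library at 251 CPM. Dbt and Mccc1, of branched-chain amino acid breakdown, fell by 0.75 and 0.87. Tnfrsf10b and Eda2r, death-domain and ectodysplasin-family receptors that p53 is known to raise, as it does Cdkn1a, rose by 1.70 and 1.81. No list of p53 targets was examined, and a role of p53 was not tested.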
